A study of Homo sapiens with 2 samples.

Results

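MYC, its partner MAX, the second hub MLX and the MXD, MNT and MGA proteins form a network of transcription factors, and its 9 genes were read here on the 0 h and 6 h arrays of a lung cancer cell line given an antibody to FSTL1. The members were all probe sets, groups of short probes that together report 1 transcript, whose platform annotation names 1 of these genes and no other gene. There were 23 such probe sets of 54675 on the array, and they covered 8 of the 9 genes. The 3 probe sets that name MXD4 also name a microRNA gene, so MXD4 has no value here.

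The cells were CL1-0, an established human lung adenocarcinoma line, which the labels also call a type II alveolar cell. Each group is 1 array: cells labelled 0 h with the FSTL1 antibody and cells labelled 6 h with it. FSTL1 is a secreted glycoprotein. Both groups share a puromycin selection and a stable transduction whose vector is not named, and cells kept for 6 h without the antibody were not analysed here, so that the antibody, time in culture and handling cannot be told apart. With 1 array per group there is no spread between replicates and no significance test, and every difference below describes these arrays only.

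MYC drives growth and cell cycle entry and is one of the most often deregulated oncogenes of human tumours, lung cancers included. It binds DNA as a dimer with MAX, through a basic helix-loop-helix leucine zipper, at a short element called the E-box. MXD1, MXI1, MXD3, MXD4, MNT and MGA compete for MAX and bind the same element. The MXD proteins and MNT recruit the SIN3 corepressor with its histone deacetylases, and MGA works within a variant Polycomb complex, PRC1.6. MLX plays the part of MAX for the glucose-sensing factors MondoA (MLXIP) and ChREBP (MLXIPL), and can also pair with MNT and some MXD proteins.

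The E-box with the letters CACGTG reads the same on both strands. It was searched in RefSeq promoter windows of GRCh38.p14, which run from 250 bases before to 50 bases after a start. Of 35116 such windows, 7.26% hold it. By gene, 8.77% of 27305 genes have it in at least 1 window, against 3 of the 8 network genes with an entry, namely MLX, MNT and MXD4. MAX, MXD1, MXI1, MXD3 and MGA have windows without these letters, and MYC has no entry. A pair of network promoters is shown because the factors' own element lies in them, followed by those of 3 textbook MYC targets and 1 MLX target whose values are given later. Each stretch lies upstream of the start and is written 5′ to 3′ on the gene's strand, with the E-box in capitals.
MLX (chr17:42567010-42567095, plus strand): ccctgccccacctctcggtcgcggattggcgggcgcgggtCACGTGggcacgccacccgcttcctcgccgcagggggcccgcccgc
MNT (chr17:2401208-2401293, minus strand): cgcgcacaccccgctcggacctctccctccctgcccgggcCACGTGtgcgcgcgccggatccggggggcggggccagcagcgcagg
ODC1 (chr2:10448013-10448081, minus strand): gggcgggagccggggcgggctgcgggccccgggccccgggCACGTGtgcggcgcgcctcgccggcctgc
SRM (chr1:11060172-11060257, minus strand): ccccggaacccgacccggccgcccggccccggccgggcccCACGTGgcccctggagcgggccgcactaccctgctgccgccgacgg
SLC7A5 (chr16:87869592-87869677, minus strand): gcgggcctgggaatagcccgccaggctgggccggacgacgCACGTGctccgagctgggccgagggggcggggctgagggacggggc
ARRDC4 (chr15:97960453-97960538, plus strand): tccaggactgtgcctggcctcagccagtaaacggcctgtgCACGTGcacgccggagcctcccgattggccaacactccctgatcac

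Each probe set has a linear intensity per array. Dim values were raised to a floor of 45.4, the 50th percentile of both arrays pooled, which is an assumed background. A probe set counts as measured when it lies above the floor on at least 1 array, and differences are log2 of 6 h minus 0 h. Of the 23 probe sets, 19 were measured, all of them above the floor on both arrays. The other 4, which were 1 each of MAX, MXD1, MNT and MGA, lay below it on both arrays and have no direction. The arrays were close in overall brightness, with medians of 45.8 (0 h) and 44.9 (6 h), and 12669 genes were measured, with a median log2 difference of 0.017. Different probe sets of 1 gene scattered with an SD of 0.16 (6122 genes), which is the only error scale these data give and is not a replicate error. Of the 8 alveolar type II markers, 7 had a probe set of their own and 5 were above the floor. The highest value among them was that of ABCA3 on both arrays, 173.4 at 0 h and 207.9 at 6 h. Of the 5 epithelial markers, KRT18 (148.2 and 120.9) and KRT8 (48.1 and 52.4) were above the floor, while EPCAM, KRT19 and CDH1 lay below it. None of the 3 leukocyte markers with a probe set of their own was above the floor. Among those of fibroblasts and endothelium, COL1A1 (230.1 and 179.4), DCN (50.5 and 41.1) and PECAM1 (73.5 and 54.5) were, on at least 1 array. A second set of COL1A1 went the other way, from 112.3 to 215.6.

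Transcripts of the network differed little between the arrays. None of the 8 measured genes was 1.5-fold higher or lower, where 0.931% of all measured genes were, and so was none of the 19 probe sets, where 0.941% of all measured sets were. The absence of a 1.5-fold difference is therefore what most genes show. On the brightest probe set of each gene, 5 of 8 genes were higher at 6 h and 3 lower, beside 54.3% of all measured genes with a difference above 0 and 45.7% below. By probe set the split was 11 higher and 8 lower, beside 54.8% and 45.1% of all measured sets. The median over the 8 genes was 0.11 on the log2 scale.

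**Figure D1:**
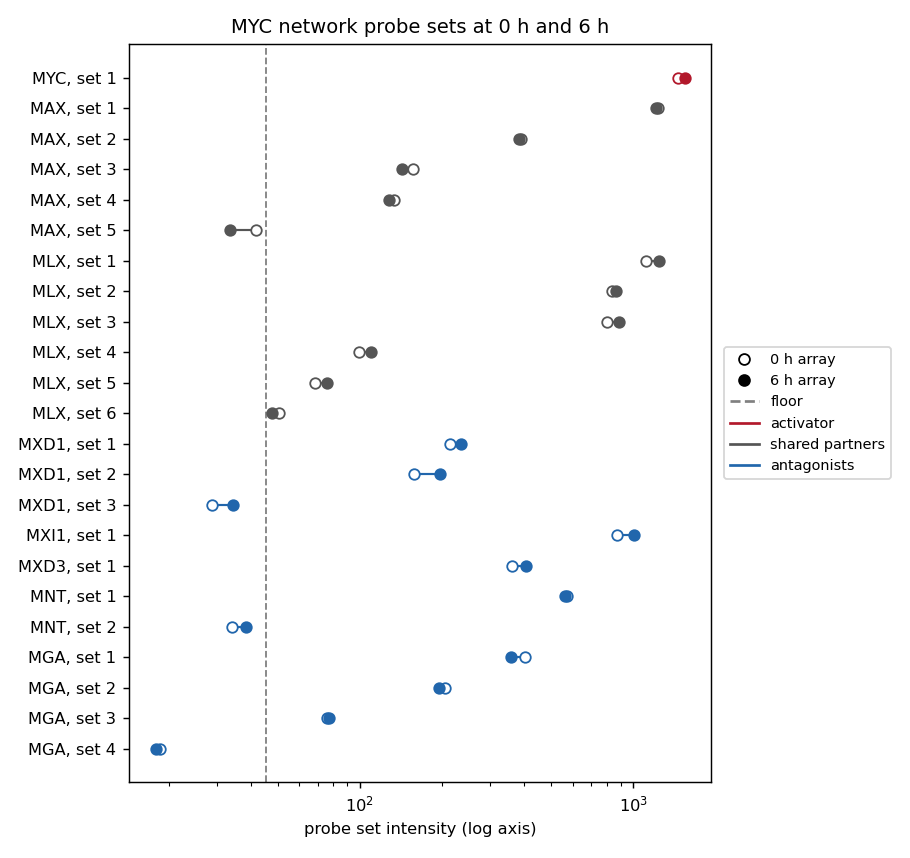
Intensity (log axis) of all 23 probe sets of the network on the 0 h array (open) and the 6 h array (filled), sorted by brightness within each gene, with the floor of 45.4 dashed. Levels of different probe sets cannot be set against each other; within a row the points of the 19 measured sets lie close together.

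MYC, the activator, is read by 1 probe set. Its intensity was 1462 at 0 h and 1543 at 6 h. The 6 h value was slightly higher, a log2 difference of 0.08 or 1.06-fold (0.04 after quantile normalization). This is below the scatter of 0.16 between probe sets of a gene, and 63.1% of all measured genes differed by as much in either direction. No second set of MYC is there to set against it.

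MAX, the obligate partner of MYC and a partner of its antagonists, had 4 measured sets, and all 4 were slightly lower at 6 h. The brightest went from 1233 to 1209 and the next from 390.2 to 383.2, log2 differences of -0.03 each. The other 2, at 156.3 to 142.9 and 133.6 to 127.4, differed by -0.13 and -0.07. These dimmer sets are of the kind whose probes can match related sequences. The sets thus share a direction, but even the largest of the 4 differences is smaller than the scatter between sets.

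MLX, the corresponding hub of the MondoA branch, had 6 measured sets, and 5 were higher at 6 h. The brightest went from 1114 to 1247, a log2 difference of 0.16 or 1.12-fold. Another bright set at 804.0 to 888.8 gave 0.14, and a dimmer one at 99.0 to 109.7 gave 0.15. The set at 68.6 to 76.0 also gave 0.15. So 4 of the 6 sets, with brightness over a wide range, agreed within 0.14 to 0.16. The remaining 2 did not share that size. One went from 838.3 to 861.9, a difference of 0.04 that was -0.02 after quantile normalization and -0.004 with a loess curve taken off. The other, just above the floor, went from 50.5 to 47.8, a difference of -0.08. On the brightest sets MLX exceeded MAX by 0.19 in log2 difference. Both hubs were thus at opposite signs. The difference of MLX was about the size of the scatter between probe sets and that of MAX well below it, and 34.6% and 85.5% of all measured genes differed by as much.

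The antagonists did not share a sign. The measured MXD family genes were all higher at 6 h, beside 54.3% of all measured genes, and MNT and MGA were lower on their brightest sets. MNT was barely lower, as 83.6% of all measured genes differed by as much, and the sets of MGA had both signs. This pattern was noticed in the values, and its 5 genes are too few to call it a split by subfamily. MXI1, also known as MXD2, had the largest difference of the 8 genes. Its single set went from 872.6 to 1010, a log2 difference of 0.21 or 1.16-fold, and 23.5% of all measured genes differed by as much.

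MXD1, which represses MYC targets in differentiating cells, had both measured sets higher. The brighter, which stands for the gene, went from 213.6 to 235.0, a difference of 0.14, and 43.9% of all measured sets differed by as much. The dimmer went from 157.9 to 197.2, a difference of 0.32 or 1.25-fold, the largest of the 19 sets, and 10.3% of all measured sets differed by as much. The 2 sets thus share a direction but not a size. The gap within a pair is not on the scale of the SD of 0.16, which is that of single sets. The third set stayed below the floor, at 28.8 and 34.5. MXD3, the member of the family that is expressed in dividing cells, went from 360.9 to 404.6 on its single set, a difference of 0.17 or 1.12-fold.

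MNT, a broadly expressed repressor that pairs with MAX and MLX, went from 575.1 to 562.3, a difference of -0.03, as small as that of MAX. Its other set lay below the floor, at 34.1 and 38.4. MGA, a very large protein that carries a T-box domain beside its helix-loop-helix, had 3 measured sets that did not agree. The brightest went from 402.4 to 356.0, a difference of -0.18 or 1.13-fold lower. The second went from 205.2 to 195.0, a difference of -0.07, and the third from 75.6 to 77.0, a difference of 0.03. The difference of MGA was -0.07 when the median of its sets stood for the gene.

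**Figure D2:**
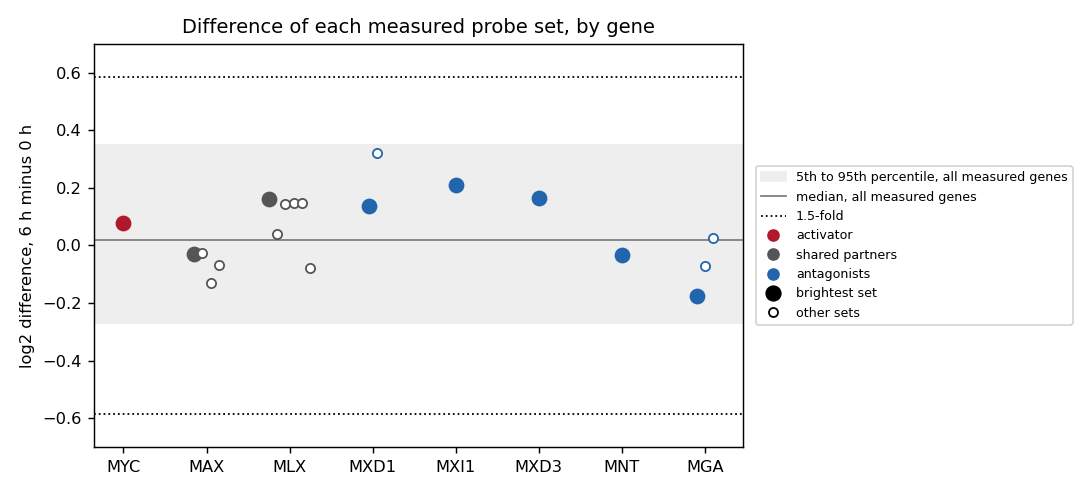
Log2 difference (6 h minus 0 h) of each of the 19 measured probe sets, by gene and coloured by role; large filled points are the brightest set of a gene and small open points its other sets. The shaded band holds the 5th to 95th percentile of all measured genes (-0.27 to 0.35), and every point of the network lies inside it.

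MYC and its antagonists differed by similar small amounts. The median over the 5 measured antagonists was 0.14, against 0.08 for MYC, so that MYC minus the antagonists came to -0.06. The antagonist median was 0.08 after quantile normalization and 0.05 without sets ending in _x_at or _s_at, which leaves out MXD3. MYC minus the antagonists lay between -0.09 and -0.04 over the settings in which it could be computed. Counted by probe set instead of by gene, the median of the 8 antagonist sets was 0.08, the same as MYC after rounding, with 5 sets higher and 3 lower. MYC minus MAX was 0.11. With 1 array per group these contrasts have no error of their own.

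**Figure D3:**
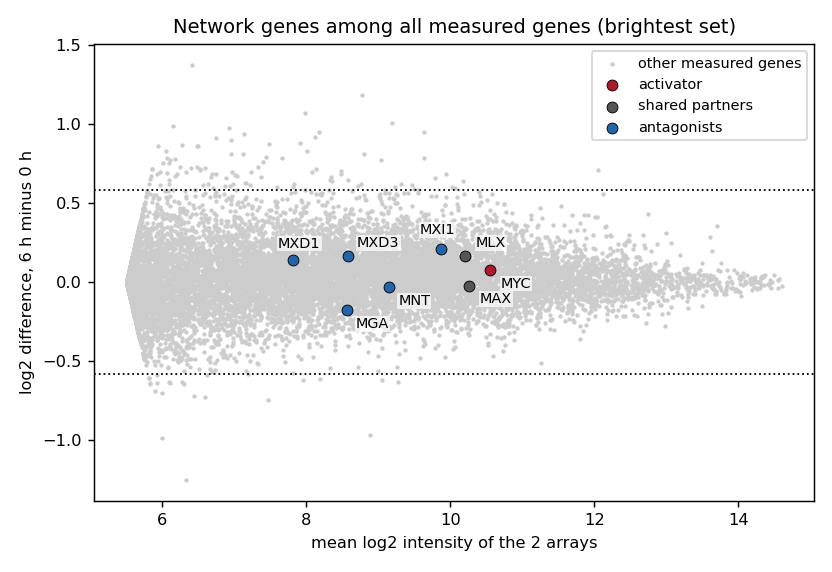
Log2 difference (6 h minus 0 h) against mean log2 intensity for all 12669 measured genes (grey, brightest probe set each), with the 8 network genes coloured by role and the 1.5-fold lines dotted. The network genes lie inside the bulk of the cloud, MXI1 highest at 0.21 and MGA lowest at -0.18.

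The remaining activators of the extended network were dim, except MLXIP. MYCL went from 88.5 to 112.0, a difference of 0.34, but its other measured set gave -0.20. MLXIPL, which encodes ChREBP, was at 77.4 and 96.8, a difference of 0.32 on its only set. MLXIP, which encodes MondoA, went from 432.4 to 410.6, a difference of -0.07, with a second set at 0.06. MYCN was at 48.8 and below the floor at 6 h. The sign of the list's median, 0.12, was not settled, since without probe sets ending in _x_at or _s_at it was -0.07.

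The SIN3 corepressor, which the MXD proteins and MNT bring to DNA, was measured for 14 of 15 genes, of which 11 were higher and 3 lower, beside 54.3% of all genes higher. Their median was 0.07 beside 0.017 for all measured genes. None passed 1.5-fold, where 0.75% of all genes did upward and 0.182% downward. SIN3A, the scaffold of the complex, came closest, from 614.5 to 920.6, a difference of 0.58 or 1.498-fold. Its 3 sets were all higher but spanned 0.02 to 0.58. ARID4B, a DNA-binding subunit, went from 931.2 to 1291, with both sets between 0.39 and 0.47. SUDS3 was at 0.25 with its other set at -0.06, and BRMS1 at -0.22.

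Partners of MGA in PRC1.6 centred on 0.03; 7 of 11 were higher, beside 54.3% of all measured genes, and 0 passed 1.5-fold, beside 0.931% either way. TFDP2, a dimer partner of E2F factors, differed by 0.30, with 4 sets between 0.21 and 0.40. Its paralog TFDP1 was at -0.17, with 3 sets all below 0. L3MBTL2, a reader of methylated histones, was at -0.20 with both sets lower, and RYBP at 0.15. In this list 4 genes were lower, L3MBTL2 and TFDP1 among them, and the list as a whole lay near the median of all genes. MGA itself was lower on its brightest set, but its sets had both signs.

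Among cofactors that MYC recruits, 11 of 16 were higher, with a median of 0.08 (0.22 without sets ending in _x_at or _s_at). This share is not far from the 54.3% of all measured genes that were higher, and 0 passed 1.5-fold, where 0.931% of all genes did either way. The nucleosome remodelling factor BPTF was at 0.37, with 5 sets between -0.07 and 0.45. The acetyltransferases EP300 and CREBBP were at 0.36 and 0.27, both sets of each being higher. EP400 was at 0.24, with 1 of its 3 sets lower. For genes that set the lifetime of MYC protein the median was -0.02, and 7 of 15 were higher, beside the same 54.3%. The kinase GSK3B, which marks MYC for degradation, was at 0.32 with 3 sets from 0.07 to 0.32. CIP2A, which shields MYC from a phosphatase, was at -0.21, the ubiquitin ligase TRIM32 at -0.15 and PLK1 at 0.15.

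For regulators of the MYC transcript the median was 0.007, and 7 of 11 were higher, beside 54.3% of all measured genes. TCF7L2, the WNT pathway factor, was at 0.26 with all 6 sets higher, from 0.06 to 0.47. The RNA-binding proteins IGF2BP3 and IGF2BP1 were at 0.17 and 0.16, with 2 of 3 sets of IGF2BP1 lower, and PUF60 was at -0.12. For other helix-loop-helix factors that can bind E-boxes the median was 0.12, 10 of the 12 measured being higher, beside 54.3% of all measured genes. MITF went from 1587 to 2143, a difference of 0.43 with both sets between 0.38 and 0.43. CLOCK, TFE3 and SREBF2 were at 0.32, 0.31 and 0.31, and 1 of 3 sets of SREBF2 was lower. On its brightest set no gene of either list passed 1.5-fold, beside 0.931% of all genes either way. ELAVL1, among the transcript regulators, was at 0.015 on its brightest set, but another of its 4 sets was at 0.76.

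Genes known to be induced by MYC were on both sides of 0. The 28 measured genes divided into 11 higher and 17 lower, where 54.3% of all measured genes were higher. Their median was -0.02 beside 0.017 for all genes, and 0 passed 1.5-fold, where 0.931% of all genes did either way. RRS1, a ribosome assembly factor, went from 1969 to 1454, a difference of -0.44 on 1 set. SRM, the spermidine synthase, went from 4078 to 3289 (-0.31), and MRTO4, another ribosome assembly factor, had both sets lower (-0.25 and -0.23). The amino acid transporter SLC7A5 went the other way, from 957.5 to 1199 (0.32). SRM and SLC7A5 both carry the E-box printed above. ODC1, the ornithine decarboxylase whose promoter is also printed, was at -0.15, and was chosen for its known E-box and not by the size of its difference.

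Genes with and without the E-box were close together. Induced targets with CACGTG in a promoter window had a median of -0.04 (16 genes, 5 higher) and those without it one of 0.001 (8 genes, 4 higher). Over all measured genes with an entry the medians were 0.021 for 1299 genes with the motif (716 higher) and 0.019 for 8925 without it (4901 higher).

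Genes known to be repressed by MYC were mostly higher at 6 h. Higher values were seen for 9 of the 11 measured genes and lower ones for 2, beside 54.3% of all measured genes that were higher. The median was 0.17, though 0.04 with no floor and 0.11 with either other floor, and 1 passed 1.5-fold, where 0.75% of all genes did so upward. That gene was DDIT3, which encodes the stress factor CHOP and also belongs to the stress response, from 410.0 to 823.2 or 2.01-fold. GADD45A, a growth arrest gene that p53 and stress also control, went from 581.2 to 774.3 (0.41). CDKN1B, which encodes the cyclin-dependent kinase inhibitor p27, went from 1255 to 1574 (0.33). CDKN1C, which encodes p57, was above the floor at 6 h alone on its brightest set, and that set was at least 1.48-fold higher under the assumed floor. Its 3 measured sets were all higher, with differences from 0.13 to 0.57. CDKN1A, which encodes p21 and was chosen after its values were seen, went from 76.3 to 63.5 (-0.26), dim values not far above the floor. MYC transcript itself was at 0.08 beside these, and MYC protein was not measured.

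Targets of MLX with MondoA or ChREBP were measured for 4 of 6 genes, and all but KLF10 were close to the floor. TXNIP, the thioredoxin-interacting protein, was at 66.9 and 63.5, a difference of -0.07. ARRDC4, an arrestin family gene whose E-box is printed above, was at 60.6 and 47.0 (-0.37). KLF10 went from 544.3 to 632.2 (0.22), and GPD1 crossed the floor downward. The median of -0.10 changed sign with the floor at the 60th percentile, where KLF10 was the only gene left.

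**Figure D4:**
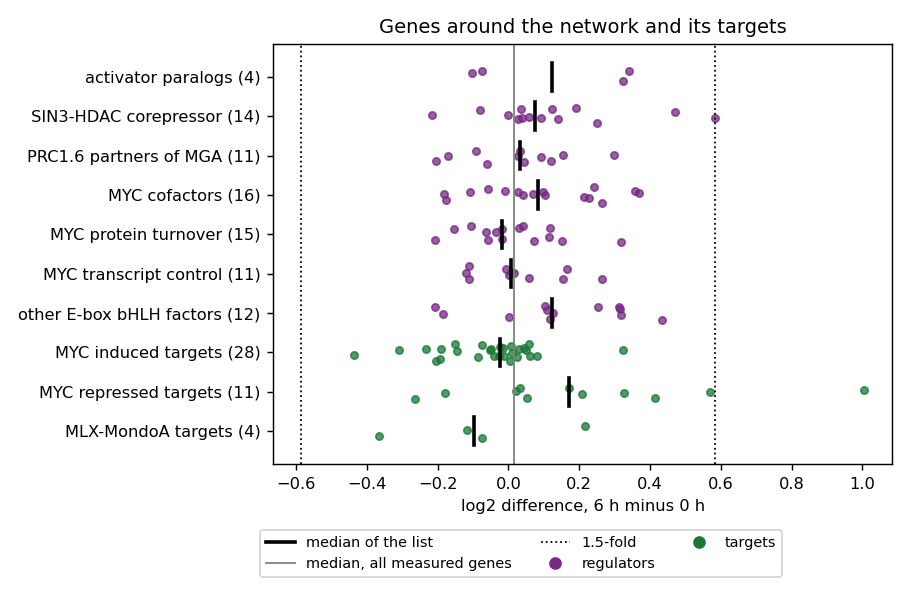
Log2 difference (6 h minus 0 h) of the brightest probe set of each measured gene in 10 lists of regulators (purple) and targets (green), with the median of each list as a black bar, the median of all measured genes (0.017) as a grey line and 1.5-fold dotted; the number of measured genes is in brackets. Induced targets centre at -0.02 and repressed targets at 0.17, and DDIT3 is the 1 gene past 1.5-fold.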

How the data were processed

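RNA from CL1-0 cells at 0 h and 6 h was read on 1 Affymetrix expression array each. The authors deposited a linear intensity for each of 54675 probe sets per array, summarised with MAS5 per the submitters' processing notes. Version, parameters and any scaling between arrays are not given in the sources used here, so a small shared shift of all genes is possible. Probe sets were named through the platform annotation, updated by Entrez identifier through a RefSeq table. Of the sets, 41091 named 1 gene (41037 matched), 1801 several and 11721 none, and 62 were array controls. No coordinates of probe sets are given. Values were floored at the 50th percentile, put on log2 and subtracted (Python 3.11.15, numpy 2.4.6, pandas 2.3.3), and a gene was represented by its brightest measured set. Sizes of 1.5-fold are descriptive. The steps were tested on simulated data whose planted differences were larger than any seen in the network. Recovery of differences as small as those of the network was not tested.

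The members and lists were chosen with earlier results of these data known. Named are all members and, of each other list, up to 4 measured genes with the largest absolute difference, with exceptions said. Gene patterns cannot be compared over 2 arrays. The floor was also set to the 40th or 60th percentile. Other alternatives were log2(value + 16) with no floor, median centring, quantile normalization, a loess curve (span 0.3, statsmodels 0.14.6), the median of a gene's sets, and leaving out sets ending in _x_at or _s_at.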

Additional observations from a re-analysis of the deposited data

How the results depend on the processing

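Each value was recomputed under 8 alternatives where it could be, giving 292 values. Of these, 285 moved by less than 0.16 (counts by less than 1.5 times) and 7 by more. Part of the 285 could not move. The brightest sets of the network genes lie above the alternative floors too, so those floors left these genes unchanged. Median centring cannot alter MYC minus the antagonists or MYC minus MAX. A gene with 1 set enters both as a set and as a gene. The share of 285 is therefore no measure of stability. The 0.16 is the scatter of single probe sets and a loose measure for a median over several genes: the median of the repressed targets went from 0.17 to 0.045 with no floor and is among the 285. No sign of a network gene changed. The count of genes at least 1.5-fold lower, 23, was 41 with the floor at the 40th percentile, 10 at the 60th and 11 with no floor. The median of the activator paralogs, 0.12, was 0.32 under a 60th percentile floor and -0.075 without sets ending in _x_at or _s_at. Under a 60th percentile floor that of the MLX targets was 0.22, which is the value of KLF10, the only gene left. Without sets ending in _x_at or _s_at the median of the repressed targets was 0.37, with fewer genes measured. The medians of the PRC1.6, protein turnover and transcript control lists, all near 0, also changed sign under at least 1 alternative. MYC, MAX and MXD3 have no value without sets ending in _x_at or _s_at. No paired analysis was possible because each group has 1 array. The number of arrays limits the precision, and sets near the floor limit it further.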
